A study of Mus musculus with 32 samples.

Results

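The comparison described here is between spinal cord microglia of female mice with a fracture and of female mice without one, where the microglia had not been depleted and are called resident. Its members are 8 of the 32 libraries in the series, the 4 resident libraries with fracture and the 4 resident libraries without fracture in the table of 15 female libraries, with transcript rows summed to 13377 genes. The genotype is given as Cx3Cr1-Cre;Rosa26-iDTR for all 32. By that label the resident groups also hold a Cre recombinase driven by Cx3cr1 and a Cre-dependent diphtheria toxin receptor. Their descriptions call them Wt, and the labels do not settle whether the resident animals carried these transgenes. In the other arm of the study, tamoxifen and then diphtheria toxin were given to remove microglia for a time, and the cells that returned are called repopulated. Female repopulated microglia were sampled in 3 libraries without and 4 with fracture, and male resident microglia in 3 libraries without and 5 with fracture. Every library is labelled day 14. Cx3cr1 is also active in other macrophages and in monocytes, so the driver is not limited to microglia. Whether the resident animals received tamoxifen, toxin or neither, how old they were, and whether each library came from its own animal are not given in the labels. The p-values below therefore measure the spread between libraries, which may be technical. For the female comparisons that spread, on which the intervals also rest, was estimated over all 15 female libraries.

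Microglia are the resident macrophages of the spinal cord. They depend on signals through Csf1r and TGF-beta, watch the tissue through receptors such as P2ry12 and Cx3cr1, and after injury of a limb or nerve they are studied as a source of signals that sensitise pain pathways. Type I interferon acts on microglia through a complex that includes Stat2 and Irf9 and switches on a broad set of antiviral genes, the class I antigen presentation machinery and chemokines such as Cxcl10. Activated or disease-associated microglia lower homeostatic genes and raise Apoe, Axl, Cst7 and Spp1.

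The 8 libraries held between 16535859 and 18654165 counts. No-fracture libraries 1 and 2 stood somewhat apart, with a median correlation of log2 CPM (counts scaled per library to a common total, as edgeR gives them) with the other 7 of 0.925 and 0.926, against 0.949 to 0.961 for the remaining libraries. The no-fracture libraries also differed more among themselves. Of 8651 genes with a mean of at least 10 CPM, 6125 (70.8%) were more variable without fracture, with a median SD of 0.22 on the log2 scale against 0.155 with fracture. Homeostatic microglial genes were abundant in every library, with Csf1r at 13545 to 16079.6 CPM over the 8 libraries. Markers that define T and NK cells, pericytes and red blood cells were not listed in the table, which holds only transcripts counted at least 10 times in at least 8 of the 15 libraries.

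No gene passed the test for a fracture difference. With p-values adjusted by Benjamini and Hochberg's method, the quasi-likelihood test of edgeR called 0 of 13377 genes (0%) at an adjusted p below 0.05, and 659 genes had an unadjusted p below 0.05. Of these, 462 (3.45% of all genes) had lower and 197 (1.47%) had higher values with fracture. In 238 genes (1.78%) all 4 fracture libraries were below all 4 no-fracture libraries, and in 175 (1.31%) all 4 were above. DESeq2 called 3 of the 7671 genes to which it gave an adjusted p (0.0391%), namely Gm8995, BC147527 and Herc6, all with lower values after fracture. A p that misses the threshold does not show that the groups are alike, and the intervals say how large a difference could remain. The 95% interval of the log2 difference lay within 2-fold in either direction for 8703 genes (65.1%), which included 93.2% of the genes above 100 CPM but 28.5% of those between 1 and 10 CPM. Leaving out no-fracture library 4 gave 1 called gene, Sult6b1 (adjusted p = 0.0263), and 791 genes with higher values at an unadjusted p below 0.05. Without no-fracture library 1 the counts were 293 lower and 127 higher, and the count of higher genes was 296 without no-fracture library 3 and 131 without fracture library 1. Leaving out fracture library 4 gave 1 called gene, Atad5 (adjusted p = 0.000792, edgeR).

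Herc6, the main ligase that attaches Isg15 to proteins in mice, had 119.9, 82.5, 99 and 84.9 CPM in the 4 no-fracture libraries and 53.7, 63.0, 72.3 and 65.2 CPM in the 4 fracture libraries. Every fracture library was below every no-fracture library, which was a condition for naming Herc6 and BC147527. The means were 96.6 ± 17.2 and 63.6 ± 7.71 CPM (SD, n = 4 each), and the log2 difference was -0.60 with a 95% interval from -0.87 to -0.34. The adjusted p was 0.62 by edgeR's quasi-likelihood test and 0.0356 by DESeq2. Herc6 lies at chr6:57581000-57664632 on the plus strand of GRCm38 and is protein coding. BC147527, at chr13:120300392-120308779 on the plus strand, had 65, 32.5, 59.2 and 36.8 CPM without and 22.6, 20.9, 28.7 and 25.4 CPM with fracture. No-fracture libraries 1 and 3 were the highest, and the groups did not overlap. Its log2 difference was -0.99 (interval -1.40 to -0.57), with adjusted p = 0.527 by edgeR and 0.00733 by DESeq2. Gm8995, a predicted gene that falls outside the naming rule and is given because DESeq2 called it, had 209.7 to 299.0 CPM without and 151 to 177 CPM with fracture (log2 difference -0.59, adjusted p = 0.157 by edgeR and 0.00169 by DESeq2). Sult6b1, of the cytosolic sulfotransferase family, had the smallest p of all (adjusted p = 0.0922, edgeR) and is likewise outside the rule. It was at 2.33, 2.73, 2.11 and 0.475 CPM without fracture and was listed at 0 in 3 of the 4 fracture libraries, with 0.107 CPM in the other, so its counts were few.

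A further 8 genes with lower values were named for their small p and the lack of overlap between the groups, and none passed the edgeR test. Cd22, an inhibitory sialic acid receptor of B cells and microglia, had 34.7, 30.3, 56.4 and 29.5 CPM without and 17.1, 15.1, 22.6 and 22.1 CPM with fracture. Its log2 difference was -0.97 (interval -1.44 to -0.50). Cd274, the checkpoint ligand PD-L1, had 39.7 to 66.6 CPM without and 23.2 to 31.2 CPM with fracture, a log2 difference of -0.84. Osm, a cytokine of the interleukin 6 family, had 27.7 to 36.8 CPM against 17.1 to 24.0 CPM (log2 difference -0.63). Nlrp1a, an inflammasome sensor, had 24.9 to 32.2 CPM against 14.9 to 20.3 CPM (log2 difference -0.67). Skil, a co-repressor of Smad proteins, had 395 to 483 CPM against 315 to 352 CPM (log2 difference -0.35). Glb1, the lysosomal beta-galactosidase, had a log2 difference of -0.36, the splicing factor Luc7l3 one of -0.27, and Ifi214, of the Ifi200 family, one of -1.38. The adjusted p of all 8 was 0.884 by edgeR's quasi-likelihood test. Each of the 8 kept a negative log2 difference under all alternatives run, which the lack of overlap required for naming largely fixed in advance. None was called under any alternative.

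Of the 10 genes named with higher values, Etfb, the beta subunit of the electron transfer flavoprotein that passes electrons from fatty acid oxidation to the respiratory chain, had 32.6, 31.4, 31.1 and 31.9 CPM without fracture and 42.6, 40.1, 39.9 and 40.8 CPM with fracture. The libraries of each group lay close together. A lack of overlap was a condition for naming these 10 genes, and 175 of all genes (1.31%) met it in this direction. The log2 difference was 0.36 (interval 0.16 to 0.56, adjusted p = 0.884 by edgeR). Sla, a Src-like adaptor that dampens immune receptor signalling, had 284 to 321 CPM against 347 to 364 CPM (log2 difference 0.24). Pde12, which breaks down the 2-5A messenger made by Oas enzymes, had 12.8 to 31.5 CPM against 34.7 to 41.0 CPM (log2 difference 0.72). Fads1, the delta-5 fatty acid desaturase, had 90.1 to 134 CPM against 138 to 153 CPM (log2 difference 0.34). Ruvbl1, an ATPase of chromatin remodelling complexes, had 32.3 to 36.9 CPM against 40.3 to 45.2 CPM (log2 difference 0.33). The other 5 were Usp54 (log2 difference 1.52, from 3.19 ± 1.32 to 9.16 ± 2.27 CPM, SD, n = 4 each), Hdhd5 (0.58), Fmo5 (0.49), Cmtm7 (0.38) and Maged1 (0.38). None of the 10 passed, with adjusted p of 0.884 to 0.94 by edgeR.

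**Figure D1:**
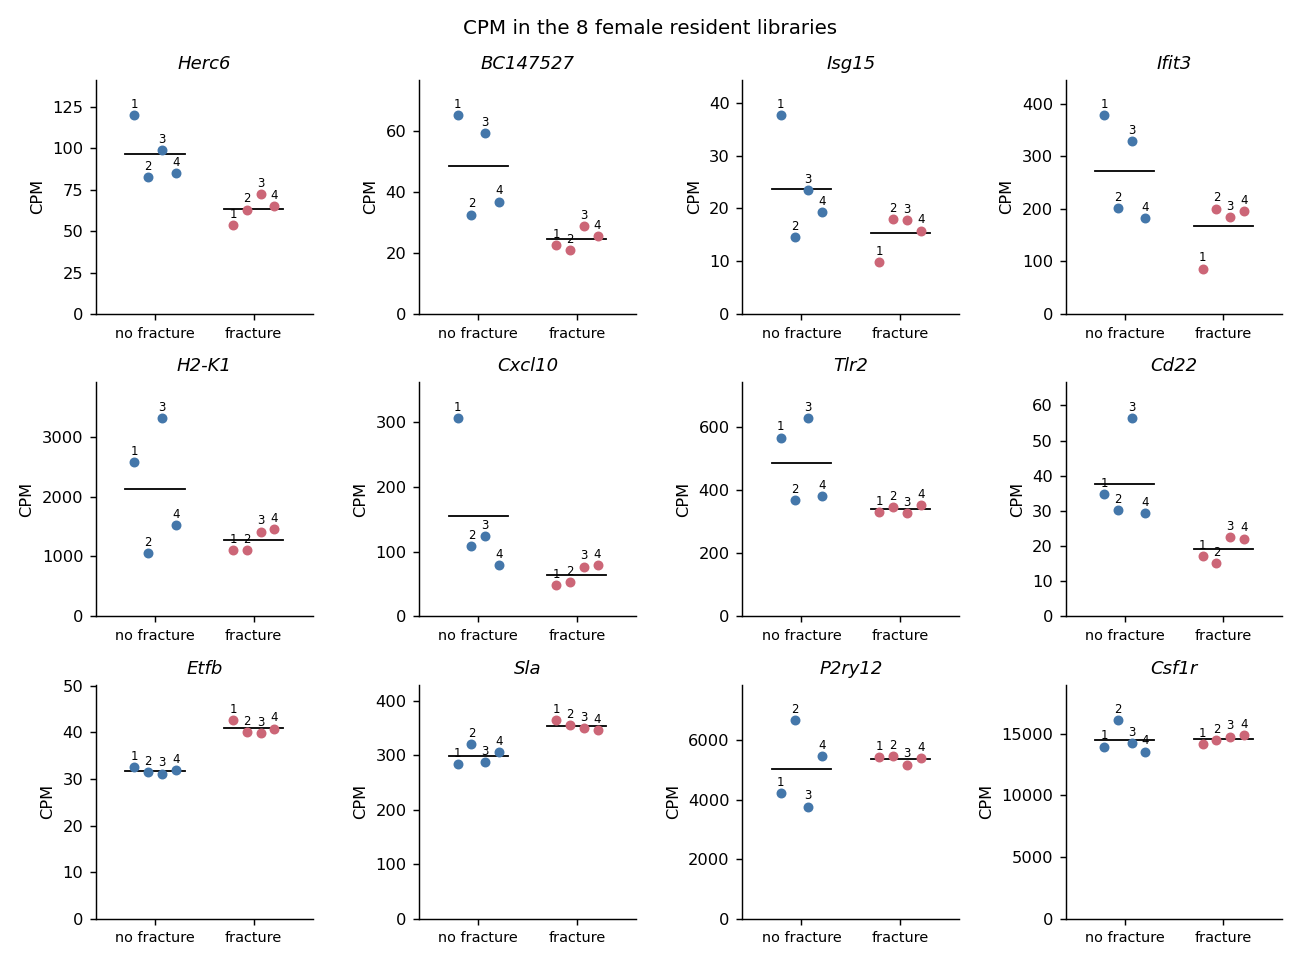
CPM (y axis, from 0) of 12 genes in the 4 no-fracture (blue) and 4 fracture (red) female resident libraries, with replicate numbers beside the points and a line at each group mean. No-fracture libraries 1 and 3 stand above libraries 2 and 4 for Isg15, Ifit3, H2-K1 and Tlr2, while Etfb separates narrowly and Csf1r stays between 13545 and 16079.6 CPM.

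Of the 29 programme lists, the interferon response had the most members with an unadjusted p below 0.05. All 32 measured members of this list had negative log2 differences, with a median of -0.73 against -0.01 over all genes tested, and 25 of the 32 had an unadjusted p below 0.05 in that direction, where the background is 3.45%. By the adjusted p, 0 of 32 were called by edgeR and 0 by DESeq2. Ifit3, an antiviral protein induced by interferon, had 378, 201, 329 and 182 CPM without fracture and 86.3, 200.5, 185 and 196 CPM with fracture. No-fracture libraries 1 and 3 were high, fracture library 1 was low, and the groups overlapped. The log2 difference was -0.71 (interval -1.33 to -0.09). Irf7, which amplifies interferon production, had 554, 145, 419 and 218 CPM against 83.8, 157, 203 and 219.5 CPM, a log2 difference of -1.01. Isg15, the ubiquitin-like modifier that Herc6 attaches, had 37.6, 14.5, 23.5 and 19.3 CPM against 9.81, 18.0, 17.7 and 15.8 CPM, a log2 difference of -0.63. The 2-5A synthetase Oas3 had the lowest value, -2.05, with 38.5, 4.54, 49.1 and 15.8 CPM against 5.54, 4.28, 3.97 and 12.2 CPM. Irf9, the partner of Stat2, was at the other end with -0.16. The RNA sensor Ddx58 was the only 1 of the 32 whose groups did not overlap, at 135, 92.3, 127 and 97.5 CPM against 63.9, 85.2, 79.4 and 89.9 CPM (log2 difference -0.51). Members of the Ifit, Oas and Ifi200 families share sequence, so single values within these families are uncertain.

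The mean log2 CPM of the 32 interferon genes was 7.25, 5.83, 7.04 and 6.23 in the 4 no-fracture libraries and 5.24, 5.83, 6.09 and 6.22 in the 4 fracture libraries. The groups overlapped: no-fracture libraries 2 and 4 had the levels of fracture libraries 2 and 4. Homeostatic genes stood the other way round in the same libraries, with 10.67, 10.95, 10.54 and 10.86 without fracture against 10.82 to 10.92 with fracture, so no-fracture libraries 1 and 3 were the highest in interferon genes and the lowest in homeostatic genes. Whether this has a part in the fracture difference was not tested. The count of 25 was 5 without no-fracture library 1, 10 without no-fracture library 3, 8 without fracture library 1, 15 with the replicate number as a block and 10 when only the 8 resident libraries entered the fit. Without no-fracture libraries 1 and 2, the pair that stood apart by correlation, it was 21. The SD of the list's mean log2 CPM was 0.67 without and 0.43 with fracture in resident microglia, against 0.15 and 0.13 in repopulated microglia. The intervals of these genes rest on a spread pooled over all 15 female libraries, so for the resident comparison they may be too narrow. The median of the list stayed negative throughout, between -0.90 and -0.51 when single libraries were left out. No alternative left out both no-fracture library 1 and no-fracture library 3, so the median without both is not known. In bulk RNA, fewer cells that carry a response and less of that response per cell cannot be told apart.

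**Figure D2:**
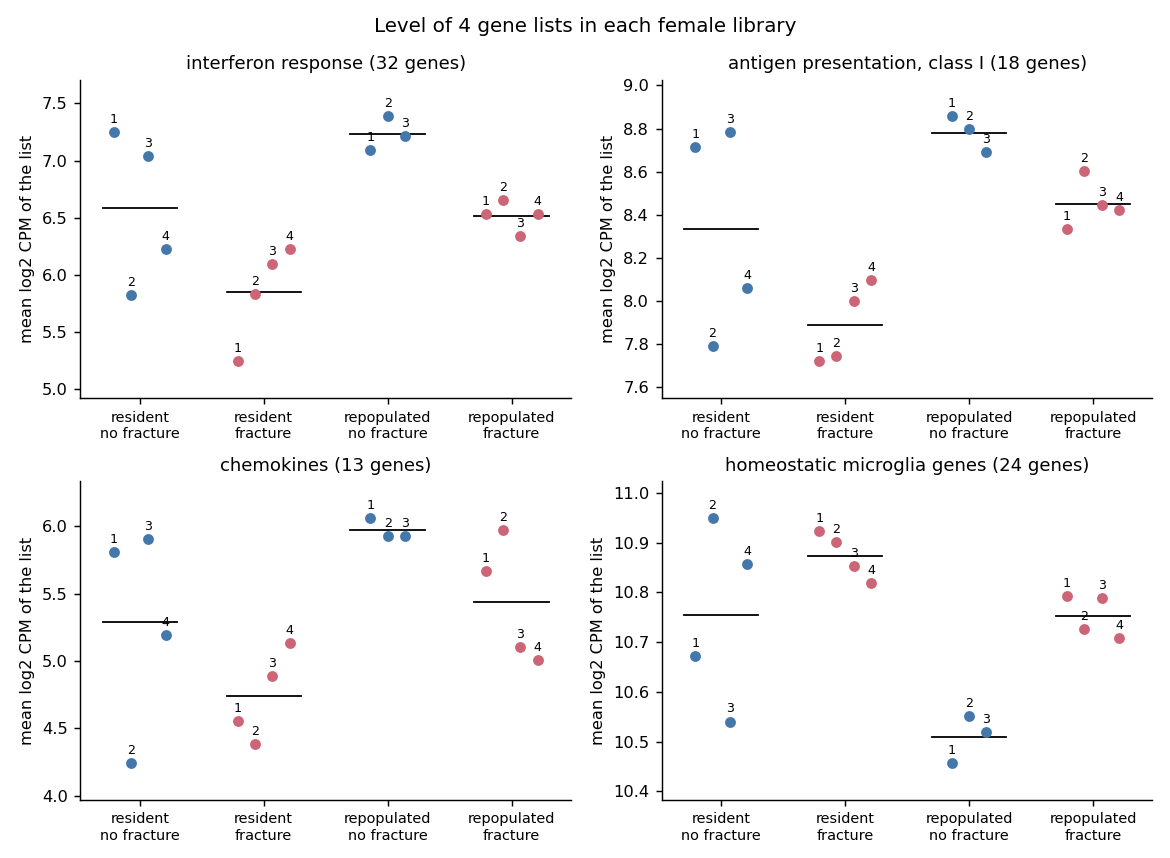
Mean log2 CPM of 4 gene lists in each female library, with blue for no fracture, red for fracture, replicate numbers beside the points and a line at each group mean. Resident no-fracture libraries 1 (7.25) and 3 (7.04) lie above all 4 resident fracture libraries for interferon genes, library 4 (6.23) lies just above the highest of them (6.22), and library 2 (5.83) lies among them.

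The promoters of these genes are shown because the members varied together between libraries. Stat2 and Irf9 act at interferon-stimulated response elements, whose core was searched for as GAAANNGAAA on both strands of the RefSeq window from 250 bases before to 50 bases after the transcription start (build GRCm38.p6). Windows were found for 24 of the 32 genes. The other 8 had none, so the list could not be checked as a whole, and the counts describe the 24 alone. Of the 24, 15 (62.5%) held the motif, against 1079 of 27025 genes with a window (3.99%). The list was made of genes known to respond to interferon, so its share follows from that choice and says nothing about fracture. The motif was in 3 of 16 class I genes with a window (18.8%) and in 2 of 8 chemokines (25%). It was in 0 of 18 homeostatic genes. A match is a description of the letters and not a bound site. Stretches of 60 bases before the start follow, 5′ to 3′ on the strand of the gene, with the motif matches in capitals. The stretches are all from genes that held the motif, while Irf7 and Irf9 had windows without it. Herc6 was looked up too and gave no stretch to show. Isg15 has 3 overlapping matches, Ifit1 and Ifit3 have 2 each on the opposite strand, and Oas3, the gene with the lowest log2 difference of the list, has 1.
Isg15, chr4:156200856-156200915, minus strand: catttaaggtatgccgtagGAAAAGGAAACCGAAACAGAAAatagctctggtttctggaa
Ifit1, chr19:34640769-34640828, plus strand: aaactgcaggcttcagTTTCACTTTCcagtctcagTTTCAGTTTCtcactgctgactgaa
Ifit3, chr19:34583365-34583424, plus strand: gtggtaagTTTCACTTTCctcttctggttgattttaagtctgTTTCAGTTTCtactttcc
Oas3, chr5:120777700-120777759, minus strand: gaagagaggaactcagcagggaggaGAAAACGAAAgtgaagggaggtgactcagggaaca

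Class I antigen presentation, which interferon also drives, had the same layout. All 18 measured genes had negative log2 differences, with a median of -0.46, and 11 had an unadjusted p below 0.05 in that direction, against 3.45% of all genes. The median was -0.29 without no-fracture library 1 and -0.31 without no-fracture library 3. None was called. The heavy chain gene H2-K1 had 2580.4, 1057, 3313 and 1529 CPM without and 1103, 1109, 1414 and 1453 CPM with fracture, so no-fracture libraries 1 and 3 were again high and the groups overlapped. Its log2 difference was -0.74 (interval -1.35 to -0.13). B2m, the light chain shared by class I molecules, had 4277, 2199, 4676 and 2753 CPM against 2121, 2256, 2783 and 2695 CPM (log2 difference -0.50). H2-Q6 and Nlrc5, the transactivator of class I genes, had log2 differences of -1.53 and -0.98. The peptide transporter Tap1 was at -0.55, while the folding factors Calr and Pdia3 were at -0.08 and -0.09. H2 genes share near-identical stretches and are uncertain one by one. The count of 11 was 3 without no-fracture library 1, 2 without no-fracture library 3, 3 without fracture library 1, 5 without fracture library 2 and 4 with only the resident libraries in the fit. The class II list also held the costimulatory genes Cd40, Cd80 and Cd86. Its median was -0.09 over 12 measured members, and 0.07 without no-fracture library 3. H2-Aa stood at 6.48, 2.50, 34.5 and 4.12 CPM without fracture against 4.29 to 13 CPM with it, and its invariant chain Cd74 at 65.4 to 428 CPM against 80.2 to 133 CPM, both with the high value in no-fracture library 3. Cd40, not itself a class II gene, was the only member of that list with an unadjusted p below 0.05 (10.8 to 23.1 CPM against 5.22 to 9.72 CPM, log2 difference -1.12).

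Chemokines and cytokines were mostly low in counts, and most had negative differences. Of 13 chemokines measured, 12 had negative values, with a median of -0.86, and 5 had an unadjusted p below 0.05 in that direction, against 3.45% of all genes. Cxcl10, the interferon-induced ligand of Cxcr3, had 307, 108.6, 124 and 79.8 CPM without and 47.7, 52.7, 76.7 and 78.8 CPM with fracture. The groups met but did not overlap, and no-fracture library 1 was far above the rest. The log2 difference was -1.27 (interval -2.31 to -0.24). Ccl7, a ligand of Ccr2, had 6.53 to 11.7 CPM against 2.46 to 4.51 CPM (log2 difference -1.32), also without overlap. Ccl2, the main monocyte attractant, had 76.9, 22.4, 48.4 and 22.3 CPM against 18.4 to 25.5 CPM, a difference of -0.86, and of -0.40 without no-fracture library 1. The remaining 2 were Ccl5 (-1.60) and Cxcl9 (-1.25). Ccl3 and Ccl4, which microglia make when activated or handled, had log2 differences of -0.80 and -0.87 with intervals that span 0.

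Of 16 cytokines and inducible enzymes measured, 10 had negative values and 5 an unadjusted p below 0.05 in that direction, again against 3.45% of all genes. Tnf had 38.8, 11, 16.7 and 9.29 CPM without and 8.6 to 11.8 CPM with fracture (log2 difference -0.93, and -0.31 without no-fracture library 1), and Il1b had 3.01 to 18.4 CPM against 2.80 to 8.33 CPM (-0.84, interval -2.16 to 0.48). Among 20 Toll-like receptor genes and adaptors the median was -0.01, and 4 had an unadjusted p below 0.05 in the lower direction. Tlr2, a receptor for bacterial lipoproteins, had 567, 369, 629.8 and 383 CPM against 331, 348, 328 and 352 CPM, without overlap (log2 difference -0.52, interval -0.82 to -0.22). Tlr3, the receptor for double-stranded RNA, was at -0.38 with overlapping groups, and Tlr4 was at 0.01 with an interval from -0.20 to 0.23. Of 16 NF-kB genes, 0 had an unadjusted p below 0.05 in either direction. Of 15 complement genes, 11 had negative values and 1 an unadjusted p below 0.05. C1qa, C1qb and C1qc, the recognition subunits that microglia make in bulk, had log2 differences of 0.04, -0.03 and 0.06. C3 had 30.3, 0.397, 92.4 and 18.2 CPM against 11.1 to 22.2 CPM, and Cfb, of the alternative pathway, had 65.9, 1.59, 88.5 and 21.4 CPM against 2 libraries listed at 0, 6.74 and 14.2 CPM, again with no-fracture libraries 1 and 3 high.

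Genes studied in microglia for pain showed no common direction. Of the 24 genes of this list 22 were measured, while Bdnf and Ptgs2 were not. Of the 22, 11 had positive and 11 negative log2 differences, with a median of 0.00. P2rx4, the purinergic channel that links microglia to pain after nerve injury, had 213, 248, 329.7 and 216 CPM without and 206 to 217 CPM with fracture. Its log2 difference was -0.25 (interval -0.49 to -0.01), and no-fracture library 3 was the highest, without which it was -0.09. P2rx7 was at 0.03 (interval -0.12 to 0.18), Irf8 at -0.00 (-0.11 to 0.11), Irf5 at 0.05 (-0.08 to 0.17) and Csf1r at 0.01 (-0.09 to 0.11). Ctss, the protease that releases fractalkine, was at -0.16 (-0.34 to 0.03), and Ptgs1, the prostaglandin synthase of resting microglia, at 0.07 (-0.05 to 0.20). The 3 genes of this list with an unadjusted p below 0.05 were Tlr2, Tnf and P2rx4. All 3 had lower values with fracture, where the share over all genes was 3.45%.

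**Figure D3:**
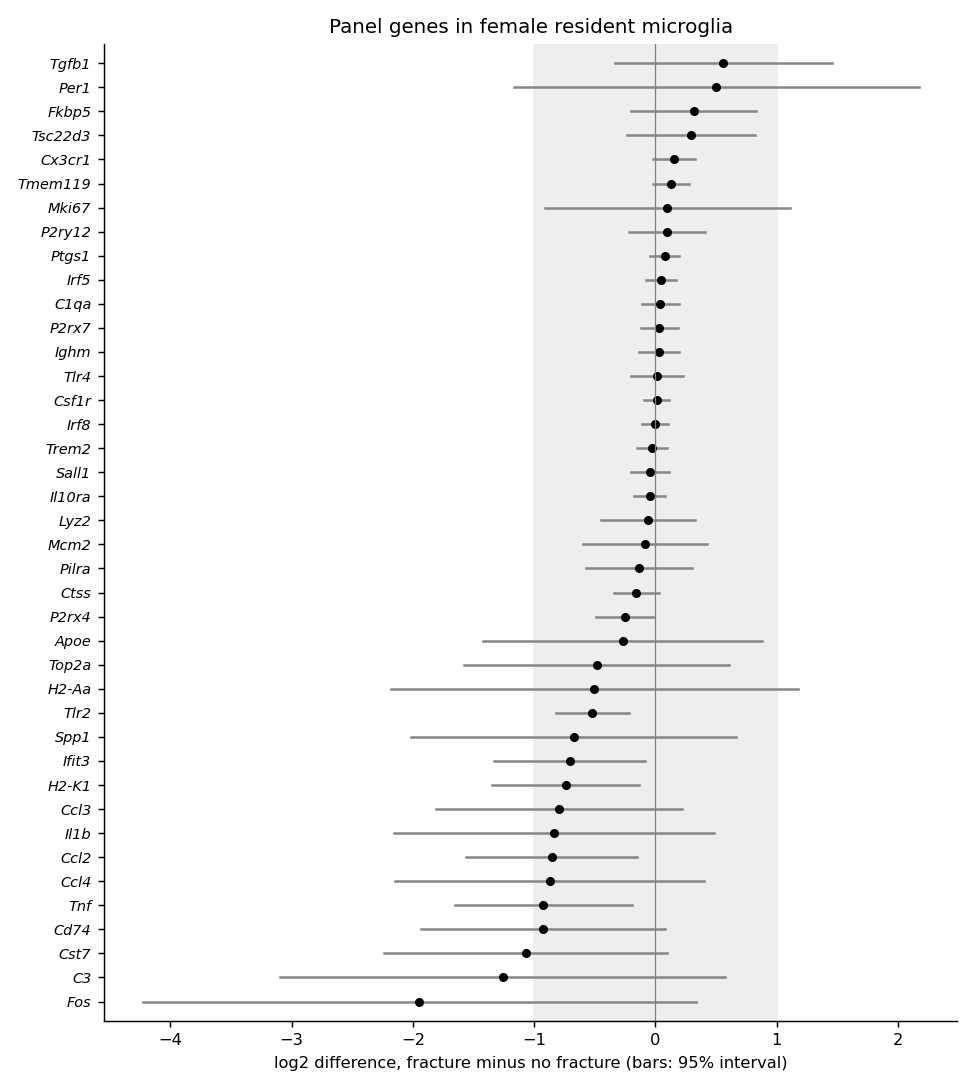
Log2 difference (x axis, fracture minus no fracture) of 40 panel genes in female resident microglia, with 95% intervals from edgeR as bars and the 2-fold range shaded. Csf1r, Irf8 and Trem2 have intervals well within 2-fold, while those of Fos, C3 and Per1 extend past it.

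Of 24 homeostatic genes, 17 had positive and 7 negative log2 differences with a median of 0.06, 0 had an unadjusted p below 0.05, and 23 of the 24 intervals lay within 2-fold. P2ry12, the receptor for ADP, had 4214, 6659.6, 3769 and 5464 CPM against 5436, 5461, 5174 and 5403 CPM. No-fracture libraries 1 and 3 were low, library 2 was high, and the fracture libraries lay between them (log2 difference 0.09, interval -0.22 to 0.41). Cx3cr1, the fractalkine receptor, had 2841, 3724, 2707 and 3110 CPM against 3335 to 3610 CPM (0.16, interval -0.02 to 0.33), and Tmem119 had 3674 to 4381 CPM against 4186 to 4508 CPM (0.13, interval -0.02 to 0.28). Fcrls, with the smallest p of the list, was at 0.30 (interval -0.03 to 0.62).

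Of 14 microglial transcription factors, 0 had an unadjusted p below 0.05. Sall1, which defines microglial identity, was at -0.04 (interval -0.20 to 0.11). Runx1, a regulator of blood cell and microglial development, had 47.2 to 145 CPM against 120.3 to 170.2 CPM (0.60, interval -0.10 to 1.303). The TGF-beta list had a median of 0.01 over 13 genes. Its ligand Tgfb1 had 8.75, 12.7, 29.7 and 33.9 CPM without and 26.5 to 35.0 CPM with fracture, so no-fracture libraries 1 and 2 were low (0.56, interval -0.33 to 1.45). The receptors Tgfbr1 and Tgfbr2 were at -0.06 and 0.01.

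Of 25 disease-associated genes, none of which passed the test, 22 had negative log2 differences, with a median of -0.28 (-0.07 without no-fracture library 3), and 3 had an unadjusted p below 0.05 in that direction, against 3.45% of all genes. Axl, a receptor for dying cells that interferon also induces, had 569, 165, 1003 and 341 CPM without and 278, 229, 273 and 354 CPM with fracture (log2 difference -0.87, and -0.34 without no-fracture library 3). Cst7, a cathepsin inhibitor, had 49.0, 17.9, 164 and 31.9 CPM against 26.3 to 40.2 CPM (-1.07, and -0.077 without no-fracture library 3), and Spp1, osteopontin, had 23.5 to 167 CPM against 21.1 to 97.4 CPM (-0.67, interval -2.01 to 0.66, and -0.085 without no-fracture library 3). Apoe, the main lipid carrier of the brain and spinal cord, had 519, 531, 2945 and 797 CPM without and 836 to 1209 CPM with fracture. A single library, no-fracture 3, stood far above the others in its group, and the log2 difference was -0.27 with it and 0.69 without it. Trem2, the lipid receptor of this programme, was at -0.03 (interval -0.15 to 0.09). Cd9, a tetraspanin, had 1342 to 1848 CPM against 1092 to 1413 CPM (-0.31).

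Of 33 lysosome and phagocytosis genes, 27 had negative values with a median of -0.11, and 4 had an unadjusted p below 0.05 in that direction and 1 in the other, against 3.45% and 1.47% of all genes. Lamp2, a lysosomal membrane protein, was at -0.21 and the protease Ctsc at -0.21. Tfeb, the transcription factor that switches on lysosomal genes, had 18.2 to 39.4 CPM without and 36.6 to 52.4 CPM with fracture, the opposite direction (log2 difference 0.67, interval 0.23 to 1.111). Lipid transport genes had a median of -0.12 over 19 genes, with Abcg1, the exporter of cholesterol to lipoproteins, at -0.27. Cholesterol synthesis genes had 17 positive and 6 negative values over 23, with a median of 0.08.

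Of 38 mitosis genes, 33 had negative log2 differences with a median of -0.30, and 0 had an unadjusted p below 0.05. Top2a, which untangles chromosomes, had 142, 40.3, 58.3 and 73.4 CPM without and 41.7, 40.8, 84.7 and 57.3 CPM with fracture, and Mki67 had 85.1, 19.4, 40.5 and 55.7 CPM against 37.3 to 67.2 CPM. No-fracture library 1 was the highest and library 2 among the lowest for both, and without library 1 the median of the list was 0.20. Of 34 replication genes, 30 had negative values with a median of -0.22. In that direction 4 had an unadjusted p below 0.05, against 3.45% of all genes. Without no-fracture library 1 their median was 0.13. Rfc3, of the clamp loader, had 24.4 to 41.8 CPM against 17.9 to 23.7 CPM, without overlap (log2 difference -0.52).

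All 31 oxidative phosphorylation genes had intervals within 2-fold, with a median of 0.00, as did all 38 ribosomal protein genes (median -0.09) and all 26 proteasome genes (median -0.05). Of 15 mitochondrially encoded genes, 13 had negative values with a median of -0.15, and mt-Nd4, of respiratory complex I, had 457 to 617 CPM without and 416 to 468 CPM with fracture (log2 difference -0.28). The summed level of these 15 was 8841 to 11169 CPM without and 8441 to 9719 CPM with fracture. Glucocorticoid-responsive genes had a median of 0.29 over 13 genes, and of 0.158 without fracture library 1 or without fracture library 3, with 9 positive and 0 at an unadjusted p below 0.05. Fkbp5, a feedback regulator of the glucocorticoid receptor, had a log2 difference of 0.31 (interval -0.20 to 0.83), and Tsc22d3, a glucocorticoid-induced leucine zipper, had 98.4 to 161 CPM against 121 to 198 CPM. The circadian list had a median of 0.18 over 15 genes, and of -0.03 without no-fracture library 1. Immediate-early genes, which cell isolation can switch on, had a median of -0.11 over 20 genes. In the lower direction 3 had an unadjusted p below 0.05, against 3.45% of all genes. Fos had 31.1, 5.51, 8.42 and 0.106 CPM without and 0.475 to 7.04 CPM with fracture, and the highest value was in no-fracture library 1, which also had the highest Tnf and Ccl2. The part of such handling in the cytokine values was not tested. The lists for glycolysis, heat shock, anti-inflammatory genes and growth factor receptors had medians of -0.11, -0.04, 0.08 and -0.02.

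**Figure D4:**
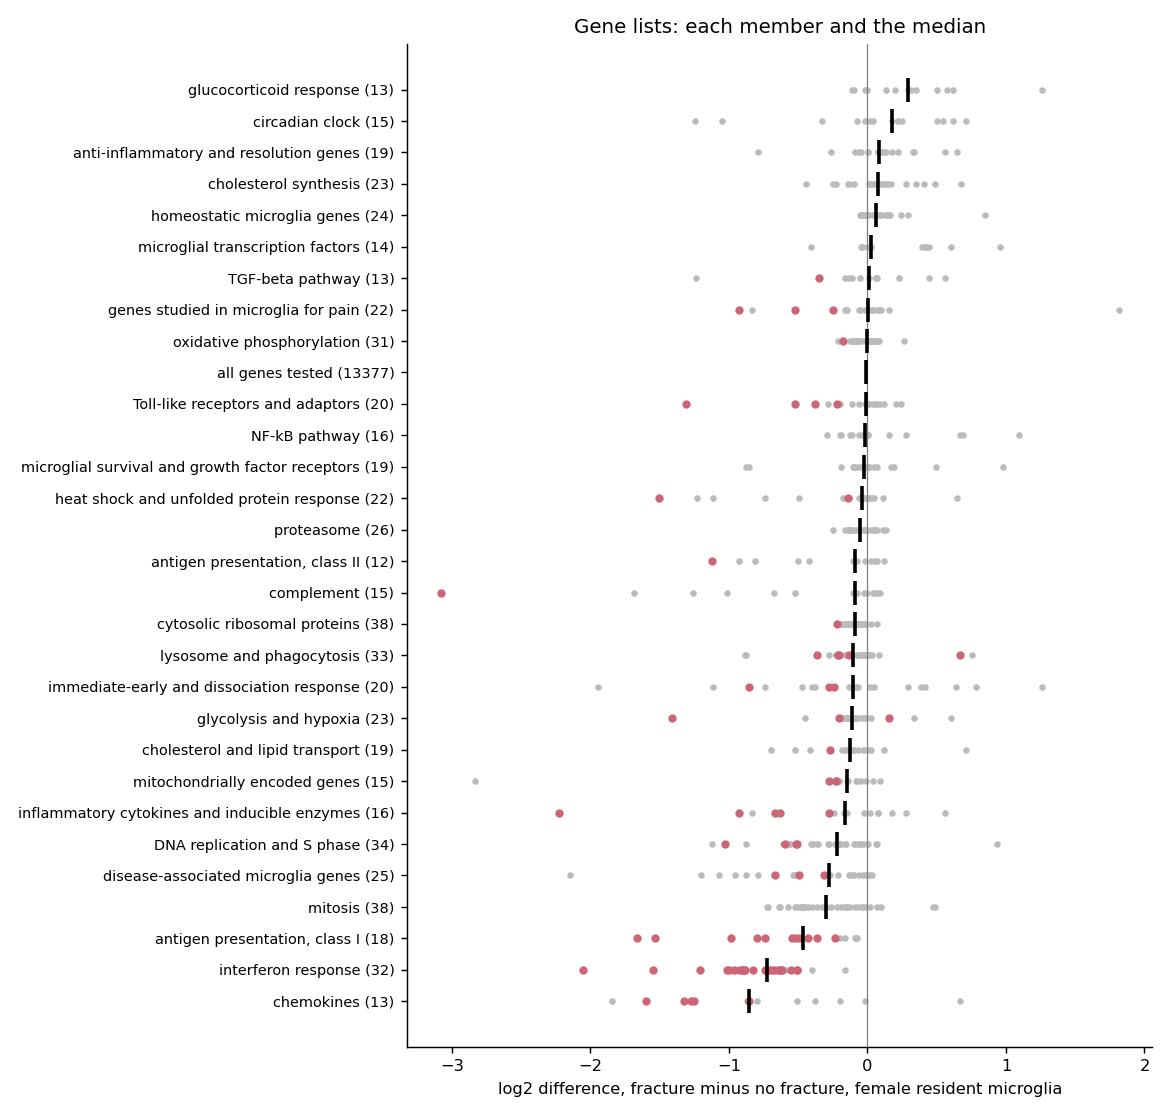
Log2 difference (x axis, fracture minus no fracture) of every measured member of 29 gene lists in female resident microglia, with the number of members in brackets, the median as a black bar, and members with an unadjusted p below 0.05 in red. Chemokines, interferon response and class I antigen presentation have the lowest medians (-0.86, -0.73 and -0.46), and none of the points passed the adjusted test.

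Markers of other cell types were listed in part. Of 19 markers of macrophages of circulating origin, 14 were listed and Ccr2 was not. Their summed level was 1203 to 4189 CPM without and 1676 to 2005 CPM with fracture, and the high end was no-fracture library 3, where Apoe alone gave 2945 CPM. Plac8 had 25.6, 2.04, 11.7 and 12.4 CPM against 2.25 to 5.26 CPM (log2 difference -1.76), and Ifi204, a member also of the interferon list, was at -0.67. Of 13 border-associated macrophage markers, 6 were listed, with a summed level of 287 to 482 CPM without and 392.5 to 431 CPM with fracture. Siglec1, itself induced by interferon, had 44.2, 6.25, 39.9 and 11 CPM against 3.17 to 12.9 CPM, while Cd163 and Lyve1 were not listed and Mrc1 and Pf4 were at 0 to 2.68 CPM. Their part in the interferon values was not tested. Of 12 neutrophil markers only Csf3r was listed, at 856 to 996 CPM, and of 10 monocyte markers 3, at a summed 1.64 to 10.5 CPM. Of 10 B cell markers 4 were listed. Ighm was at 434 to 567 CPM and at 0.03 (interval -0.13 to 0.19), whereas Cd79a and Ms4a1 were not listed. Oligodendrocyte markers summed to 2192 to 2699 CPM, most of it Trf, and Mbp had 67.6 to 220.0 CPM without and 73.1 to 111 CPM with fracture. Of 8 markers of oligodendrocyte precursors 2 were listed, at a summed 0 to 1.57 CPM, and of 12 neuronal markers 3, at a summed 2.80 to 10.8 CPM. Of 11 astrocyte markers 9 were listed, summing to 165 to 185 CPM, but Aqp4 and Sox9 were not. Of 11 endothelial markers 4 were listed and Cldn5 was not. Of 8 fibroblast markers 1 was, Ptgds, at 0.332 to 2.36 CPM.

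Repopulated microglia of the same sex give a second fracture comparison in 7 other libraries, prepared in the same way. There, edgeR called 0 of 13377 genes (0%), DESeq2 called 89 of 13376 (0.665%), and 681 genes (5.09%) had lower and 729 (5.45%) higher values at an unadjusted p below 0.05. The 32 interferon genes had a median log2 difference of -0.72, and 19 had an unadjusted p below 0.05 in the lower direction. Their mean log2 CPM was 7.09, 7.39 and 7.22 without fracture and 6.53, 6.66, 6.34 and 6.53 with fracture, and here the groups did not overlap. Ifit3 was at -0.78, Herc6 at -0.48 and BC147527 at -0.92. The class I list had a median of -0.33, with 3 genes lower and 1 higher at an unadjusted p below 0.05. The difference between the 2 fracture effects, repopulated minus resident, was called in 0 of 13377 genes (0%) by edgeR and in 1 of 13376 (0.00748%), the sparsely counted Kbtbd12, by DESeq2. At an unadjusted p below 0.05 there were 264 genes (1.97%) with higher and 230 (1.72%) with lower differences. Among the interferon genes the median difference was 0.09 and 0 of 32 had an unadjusted p below 0.05. For Ifit3 the interval of the difference ran from -0.98 to 0.83.

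Of the 5 genes of smallest p for this difference, Nlrp1a was at -0.67 in resident and 0.39 in repopulated microglia (difference 1.05, edgeR adjusted p = 1.00), and Nedd9, a scaffold protein of cell adhesion, at -0.82 and 1.10. Meis3 and Pik3r6, the latter a regulatory subunit of phosphoinositide 3-kinase gamma, were near 0 in resident cells (0.00 and 0.04) and at -0.60 and -0.37 in repopulated cells. Stx16, a syntaxin of the Golgi, was at -0.15 and 0.35. Mki67, of the panel, was at 0.10 in resident and -1.81 in repopulated microglia, a difference of -1.90 that did not pass. Over the 38 mitosis genes the median difference was -0.48. At an unadjusted p below 0.05 (edgeR), 1 was higher and 2 lower, against 1.97% and 1.72% of all genes.

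Resident microglia of males were compared in the table of 17 libraries, which were made with another RNA and library kit, so sex and kit cannot be told apart. Of 11999 genes, edgeR called 1 (0.00833%), G530011O06Rik, and 322 (2.68%) had higher and 189 (1.58%) lower values at an unadjusted p below 0.05. The interferon genes had a median log2 difference of 0.69, the opposite sign to the females, with 8 of 32 higher at an unadjusted p below 0.05 and 0 lower. Their mean log2 CPM was 3.19, 3.83 and 3.62 in the 3 male libraries without and 4.49, 4.16, 3.88, 4.30 and 4.32 in the 5 with fracture, and the groups did not overlap. Herc6 had 11.8, 17.5 and 16.7 CPM against 41.3, 28.2, 22.2, 33.5 and 31.6 CPM, every fracture library above every other. H2-K1 had 577 to 644 CPM against 839.6 to 1043 CPM.

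The difference itself, female minus male, was tested in 1 fit of all 32 libraries over the 25822 transcripts in both tables. edgeR called 0 of 11617 genes (0%), and 433 (3.73%) had a lower and 187 (1.61%) a higher difference at an unadjusted p below 0.05. DESeq2 called 24 of 11605 (0.207%), all with the female value below the male one, among them Herc6, BC147527, Oas1a, Slfn5, Ccl12, H2-K1, H2-D1 and Gm4951. Of the interferon genes, 27 of 32 had an unadjusted p below 0.05 in the lower direction with a median difference of -1.51, and of the 18 class I genes 14 did with a median of -0.80. Leaving out single female libraries gave 19 to 29 of the 32. Low medians were also found in other lists, -1.50 over 35 mitosis genes, -1.47 over 13 chemokines and -1.32 over 13 markers of macrophages of circulating origin. At an unadjusted p below 0.05 (edgeR), 4, 5 and 5 of these were lower, against 3.73% of all genes, and 1 chemokine was higher. The smallest p in this test belonged to Gpc2, a glypican, with a log2 difference of -0.24 in females and 2.35 in males (difference -2.51, edgeR adjusted p = 0.191). Herc6 followed at -0.60 and 1.04 (difference -1.68, adjusted p = 0.262, edgeR), then Ip6k2, an inositol hexakisphosphate kinase, at -0.20 and 4.23 from at most 0.12 CPM in male libraries without fracture, Gm4951 at -0.83 and 1.83, and BC147527 at -0.99 and 0.71. Homeostatic genes had a median difference of 0.12, with 0 of 24 at an unadjusted p below 0.05.

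**Figure D5:**
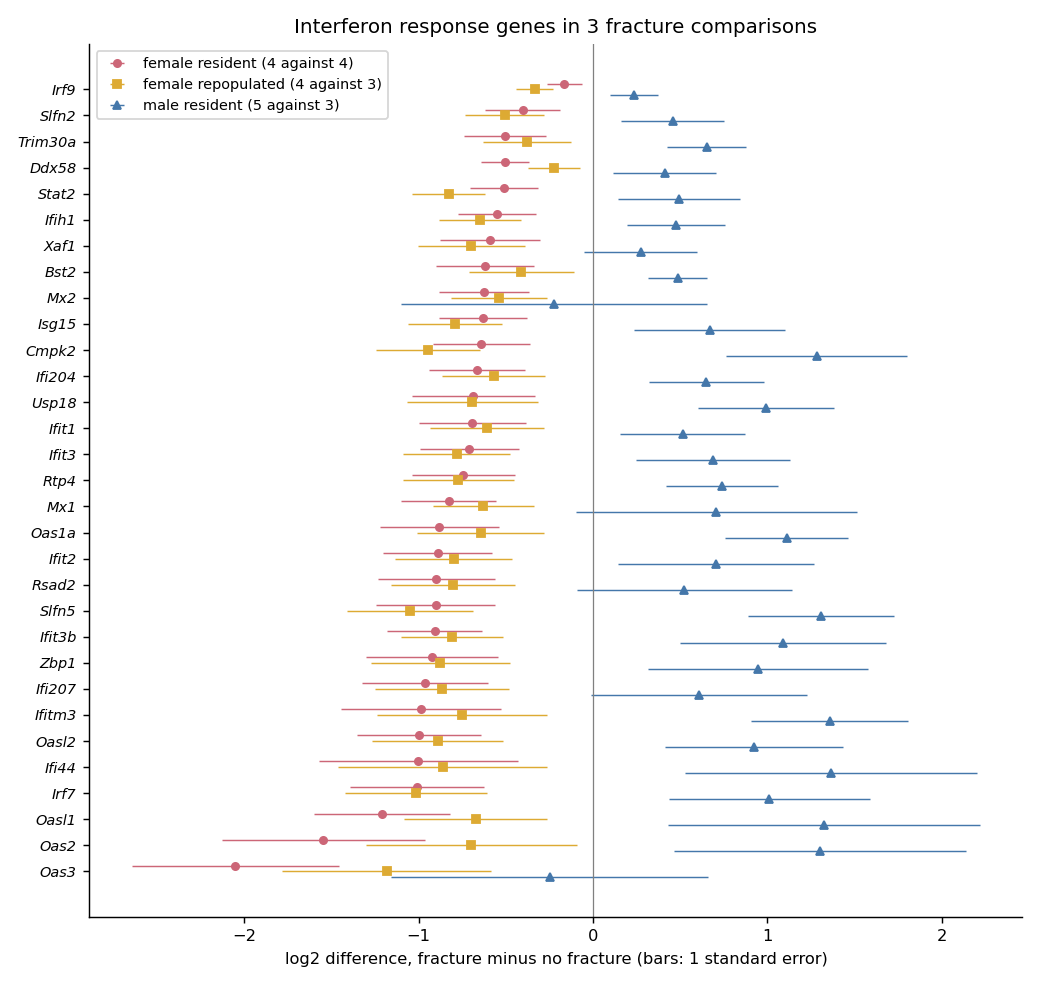
Log2 difference (x axis, fracture minus no fracture) of 31 of the 32 interferon response genes in female resident (red), female repopulated (yellow) and male resident (blue) microglia, with 1 standard error from edgeR as bars. All 31 points are below 0 in female resident microglia, and 29 of 31 are above 0 in male resident microglia, the exceptions being Mx2 and Oas3.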

How the data were processed

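RNA-seq of sorted microglia was deposited by the authors as whole-number estimated counts per transcript, 1 table for each sex. Per the submitters' processing notes, RSEM 1.3.1 and STAR 2.7.6a were used with build GRCm38, beside cutadapt 3.4 and Trim Galore 0.6.7. Per the labels, females and males used different RNA and library kits. Transcripts were summed by gene identifier and fitted with edgeR 4.0.16 in R 4.3.3 (TMM scaling, filterByExpr, robust quasi-likelihood test, Benjamini-Hochberg adjustment) over the 15 female libraries. filterByExpr removed 0 genes, as the deposited table was already filtered. CPM are TMM-scaled; list levels are means of log2 CPM with a prior count of 2. Intervals are 95%. DESeq2 1.42.0 and limma 3.58.1 served as alternatives. The code was checked on simulated data. The comparison, lists and panel were chosen with earlier results of these data known. Named genes are the 10 per direction of smallest p without overlap and at least 5 CPM in the higher group, 2 per list, a panel of 42, and 5 per difference between fracture effects; other list members, Gm8995, Sult6b1 and Atad5 were named after their values were seen. Alternatives covered scaling, filtering, test, the libraries in the fit, left-out libraries and a replicate block. Positions come from GENCODE vM21. Results for some genes are not reported here.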

Additional observations from a re-analysis of the deposited data

Results flagged for a closer look

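In 346 groups of 4 libraries (the named genes and list levels, each with and without fracture), 14 had 1 library far from the other 3, with a gap to the nearest that took up nearly the whole range of the group. Chance gives about 1 in 20 such groups, so 14 is no more than chance gives. Of the 14, 5 were without and 9 with fracture.

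Among microglial genes, Apoe had 2945 CPM (2950 as rounded) in no-fracture library 3 against 519 to 797 CPM in the other 3, and the class II gene H2-Aa had 34.5 CPM there against 2.50 to 6.48 CPM. Sall1 had 334 CPM in fracture library 3 against 298 to 302 CPM. Fracture library 1 was low for Ifit3, with 86.3 CPM against 185 to 200 CPM, for Il1b, with 2.80 CPM against 8.10 to 8.33 CPM, and for Meis3, with 48.4 CPM against 54.6 to 55.8 CPM. Ccl2 had 18.4 CPM in fracture library 2 against 24.7 to 25.5 CPM. Maged1 had 48.0 CPM and Stx16 64.3 CPM in no-fracture library 3, against 58.6 to 60.5 CPM and 58.5 to 58.9 CPM. In markers of other cells, Mbp had 111 CPM in fracture library 3 against 73.1 to 75.5 CPM, Aldh1l1 had 2.04 CPM there and was listed at 0 in the other 3, and Ighd had 26.4 CPM in fracture library 4 against 21.4 to 22.2 CPM. Of the list levels, the proteasome genes had a mean log2 CPM of 6.56 in no-fracture library 1 against 6.39 to 6.41, and the Toll-like receptor genes 5.98 in fracture library 4 against 6.08 to 6.09.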

How the results depend on the processing

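The number of genes called for the fracture effect was 1 without no-fracture library 4 and 1 without fracture library 4. It was 0 under every other alternative run with edgeR or limma, and 3 with DESeq2. For the difference between repopulated and resident cells it was 1 with DESeq2 and 0 to 1 without single libraries, and for that between sexes 24 and 0 to 1. Without single libraries, genes at an unadjusted p below 0.05 numbered 293 to 645 lower and 127 to 791 higher, interferon genes 5 to 32 and class I genes 2 to 13. With only resident libraries in the fit the last 2 were 10 and 4. The smallest adjusted p of any gene was then 0.922 (edgeR), against 0.0922 in the main fit. Filtering on low counts removed no gene, so that alternative repeats the reported values.

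Same-numbered libraries did not deviate together (correlations of -0.163, -0.0117, 0.0458 and -0.312), so the numbers were not taken as pairs. With the replicate number as a block, 0 genes were called, and 387 lower, 244 higher, 15 interferon and 8 class I genes had an unadjusted p below 0.05.

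The sign turned in the genes below, and the cause was not tested. With limma and library weights Slc1a2 was at 0.19, Meis3 at -0.034 and Ip6k2 at 0.064. With library totals only Irf8 was at 0.0037. With only resident libraries in the fit Irf8 was at 0.0009545. Without no-fracture libraries 1 and 2, an alternative chosen after seeing the data, Tlr4 was at -0.025, P2rx7 at -0.024, Irf8 at 0.017, Mcm2 at 0.11, Tgfb1 at -0.020, Meis3 at -0.080 and Ip6k2 at 0.40. Leaving out single libraries gave -0.99 to 0.12 for Aurka, -0.016 to 0.26 for P2ry12, -0.020 to 0.065 for Csf1r, -0.52 to 0.69 for Apoe, -0.062 to 0.018 for Trem2, -0.082 to 0.085 for Tlr4, -0.013 to 0.089 for P2rx7, -0.020 to 0.016 for Irf8, -0.84 to 0.94 for H2-Aa, -0.17 to 0.48 for Mki67, -0.24 to 0.20 for Mcm2, -0.16 to 0.14 for Lyz2, -0.25 to 0.087 for Pilra, -0.023 to 0.10 for Ighm, -0.052 to 0.076 for Meis3 and -0.37 to 0.063 for Ip6k2.

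Depth limits the rarer genes: of those under 1 CPM, 0.465% had an interval within 2-fold.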
